A study of Homo sapiens with 5 samples.

Results

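The 8 genes described here are SUCO, GUK1, TCF25, CDV3, WDYHV1, RBFOX2, ZNRF3 and FBRSL1. Each was given with a span of the hg19 genome at its start, and a BG4 peak that overlapped the span by at least 1 bp was taken as the peak of that gene. The given spans have the same first and last bases as the merged peaks of the 4 lists. That these peaks overlap the spans was therefore fixed in advance. The spans were selected on the high deposited fold of their peaks in the 4 lists and for lying outside repeated gene copies, so the folds below are a description and no difference in them was tested. Merging the peaks of all lists on chromosomes 1 to 22, X and Y gave 7520 regions, of which the 8 spans are 8. That these spans are gene starts comes with the choice, and the position of each summit relative to its gene start was not analysed here, since the gene table used is on another build.

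The study mapped G-quadruplexes in LNCaP, a long-established line of prostate cancer cells that respond to androgen, and asked how they relate to enhancers. Its 5 samples are 4 BG4 pull-downs and 1 input from cross-linked, sonicated chromatin, and the labels name no treatment. All 4 pull-downs form 1 group, and the input has no list of its own. The labels do not say whether the replicates are separate cultures, and the SDs below may therefore be technical.

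A G-quadruplex (G4) is a stack of guanine tetrads that forms in single DNA strands with several runs of guanines. BG4 is an antibody fragment that recognises the fold rather than 1 sequence. In cells, BG4 signal is known to sit mostly at nucleosome-depleted, GC-rich promoters of transcribed genes. The 8 genes have unrelated functions, from nucleotide metabolism to splicing and Wnt signalling.

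For 5 of the 8 genes, the RefSeq promoter table (GRCh38.p14) held sequence around annotated start sites, from 250 bases before to 50 after, with 10 such windows in all. The genes are SUCO, GUK1, TCF25, CDV3 and FBRSL1, and WDYHV1, RBFOX2 and ZNRF3 had no entry. The stretches below are shown because they hold a G4 motif, that is, at least 4 runs of GGG or longer separated by loops of 1 to 7 bases, on either strand. Capitals mark the bases inside overlapping motif matches, and all are written on the plus strand, on which all 5 genes are annotated. Their coordinates are GRCh38.p14 and cannot be set beside the hg19 peak positions.
FBRSL1 (chr12:132490041-132490150): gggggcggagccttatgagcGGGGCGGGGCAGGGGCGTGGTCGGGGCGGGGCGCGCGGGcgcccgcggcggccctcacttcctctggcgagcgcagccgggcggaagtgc
CDV3 (chr3:133573576-133573685): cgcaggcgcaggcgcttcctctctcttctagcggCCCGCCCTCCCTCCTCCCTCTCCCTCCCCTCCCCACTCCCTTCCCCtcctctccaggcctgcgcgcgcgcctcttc
TCF25 (chr16:89873402-89873501): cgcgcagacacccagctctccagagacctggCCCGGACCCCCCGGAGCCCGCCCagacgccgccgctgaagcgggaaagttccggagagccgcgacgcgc
SUCO (chr1:172532989-172533015): GGGGGTGCGGGCGCCGCGGGACTTGGG
GUK1 (chr1:228140068-228140089): GGGAGAAGACGGGCTGGGAGGG

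Motif matches were found in 7 of the 10 windows, and each of the 5 genes had at least 1. The motif was held by 25% of all 35116 windows, and 27.9% of all genes had at least 1 such window. Of the windows of protein-coding genes, 30.4% held it, and 36.3% of these genes had at least 1. With runs of at least 4 guanines, 1 of the 10 windows and 4.23% of all windows held it. The shares per gene also depend on how many windows a gene has. The 5 genes had 10 windows, all 27305 genes had 35116, and the 15843 protein-coding genes had 22199. The guanine runs of the main definition lay on the gene strand in 5 windows and on the opposite strand in 2. At FBRSL1, the stretch shown spans 6 runs from 90 to 52 bases before the start site, and another of 5 runs lay from 250 to 222 bases before it. The CDV3 stretch, from 76 to 31 bases before the first start site, has 9 runs on the opposite strand. At TCF25 the 4 runs, also on the opposite strand, lay from 159 to 137 bases before the start.

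SUCO has start sites 801 bases apart in this table. The window of the first had a GC content of 50% and no motif, and that of the second had a GC content of 72.7% and the motif shown, 161 to 135 bases before the site. The first and second start sites of GUK1 lie 195 bases apart, their windows overlap, and the motif shown is counted in both. It runs from 16 bases before to 5 bases after the first site. The second window of CDV3 held another motif stretch on the gene strand from its start site to 22 bases after it and one 246 to 225 bases before it.

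GC content over the 10 windows had a median of 69.8%, against 58.7% over all windows and 62.3% over those of protein-coding genes. The windows held a median of 34 CpG, against 14 over all windows and 21 over those of protein-coding genes. The GC box GGGCGG, the letters bound by Sp1-type zinc fingers, was present on either strand in 8 of the 10 windows, against 45% of all windows and 56.3% of those of protein-coding genes. It can overlap the G4 motif, since both are read from guanine runs. FBRSL1 had 9 GC boxes in the window of its first start site. A match says that these letters are present in the window and not that the structure forms there.

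**Figure D1:**
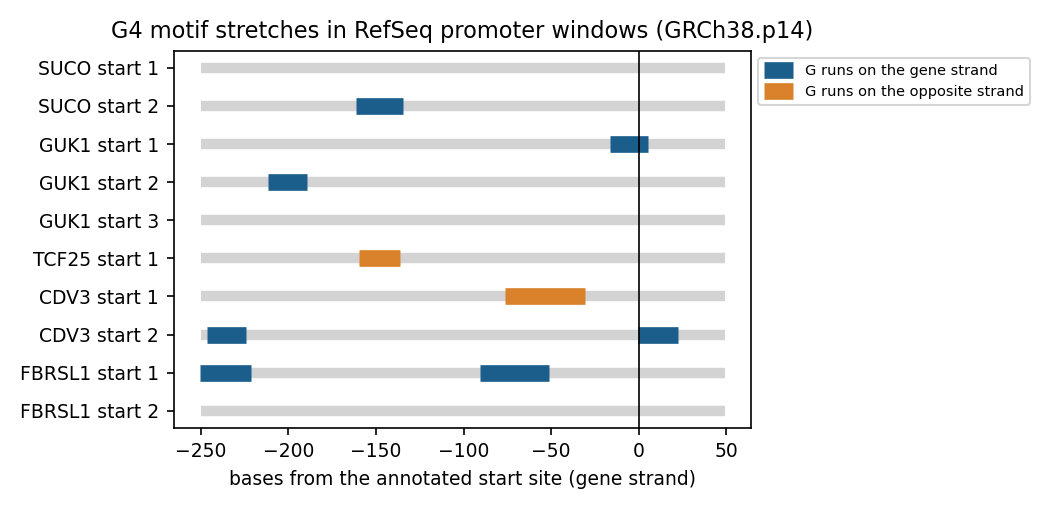
G4 motif stretches in the 10 RefSeq promoter windows of 5 genes (grey bars, from 250 bases before the start site to 50 after, GRCh38.p14). Blue marks guanine runs on the gene strand, found in 5 windows, and orange marks runs on the opposite strand, found in 2, while 3 windows have none.

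All 8 regions were called in each of the 4 lists, with 1 peak per list, so 32 peaks enter the description. Of all merged regions, 11.8% were called in every list, and nothing is read from the members' count, since it was part of how they were chosen. The fold is the ratio of reads at the peak summit to the local background as the authors' caller gave it, with a pseudocount of 1 added to both. The median fold of the members was 22.6, 16.7, 17.6 and 17.1 in replicates 1, 2, 3 and 4. Over all peaks of the same lists the medians were 6.39, 6.63, 6.55 and 6.48. Over the 8 members, the median of the mean folds was 18.5, and it was 34.8 when recovered reads were divided by background without the pseudocount. Of the 32 member peaks, 25 were in the top 1% of their list by fold.

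TCF25 encodes a protein that takes part in ribosome-associated quality control of nascent chains. Its folds were 27.5, 16.7, 16.6 and 22.01 in replicates 1, 2, 3 and 4, with a mean of 20.7 ± 5.16 (SD, n = 4). The peak had the highest fold of the whole list in replicate 4, over a background of 1.07 times the genome level in all 4 lists.

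GUK1 encodes guanylate kinase, which phosphorylates GMP to GDP. It had folds of 28.4, 17.4, 18.0 and 17.6 in the same order, with a mean of 20.3 ± 5.40 (SD, n = 4). Replicate 1 stood above the other 3, which lay close together.

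CDV3, whose molecular function is little known, had folds of 28.5, 16.5, 18.0 and 14.5 and a mean of 19.4 ± 6.22 (SD, n = 4). Here too replicate 1 was far above the rest. SUCO encodes a membrane protein of the rough endoplasmic reticulum that is needed for bone formation in mice. Its folds were 22.5, 13.5, 19.4 and 20.9, with a mean of 19.1 ± 3.92 (SD, n = 4), and replicate 2 was the low one.

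WDYHV1, also named NTAQ1, encodes an amidase that converts amino-terminal glutamine to glutamate in the N-degron pathway. Its folds of 21.4, 16.9, 17.4 and 16.1 had the smallest relative spread of the 8 members, with a mean of 18.0 ± 2.34 (SD, n = 4). RBFOX2, a splicing regulator that binds UGCAUG elements beside alternative exons, had folds of 22.7, 11.95, 17.8 and 18.2, with a mean of 17.7 ± 4.41 (SD, n = 4). Replicate 2 was again low.

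ZNRF3 encodes a transmembrane ubiquitin ligase that removes Frizzled receptors from the cell surface and so restrains Wnt signalling. Its folds were 13.0, 17.5, 12.3 and 16.7, with a mean of 14.9 ± 2.58 (SD, n = 4). It was the only member whose highest fold was not in replicate 1. FBRSL1, a relative of the Polycomb-associated protein AUTS2, had folds of 21.0, 16.7, 11.9 and 5.58 and a mean of 13.8 ± 6.63 (SD, n = 4). Its peak in replicate 4 lay at the 30.1th percentile of that list by fold, below the list median, while the other 31 member peaks were at the 95.4th percentile or above.

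Ordered by mean fold, the members ran TCF25, GUK1, CDV3, SUCO, WDYHV1, RBFOX2, ZNRF3 and FBRSL1, and no step between neighbours in this order exceeded the larger of their SDs over lists. The highest fold was in replicate 1 for 7 of the 8 members. The same held for 57.7% of the 886 regions called in every list.

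**Figure D2:**
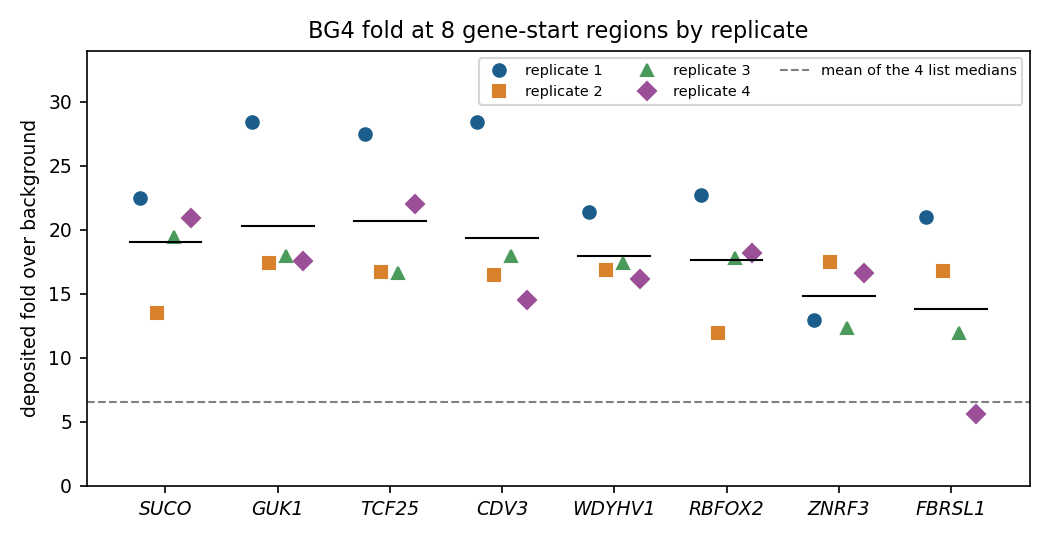
Deposited fold (vertical axis, ratio of summit reads to background) of each gene's peak in replicates 1 to 4 (points), with the mean of the 4 as a black line and the mean of the 4 list medians as a dashed line. Replicate 1 is highest at 7 of the 8 genes, and the FBRSL1 peak of replicate 4, at 5.58, is the only point below the dashed line.

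Ordered by reads, the members did not fall as they did by fold. The whole reads behind each summit were recovered from the deposited fold and −log10 p, and dividing them by the genome-wide background of the list gave a depth-scaled level that can be set side by side across lists. WDYHV1 had the highest mean level, 67.9 ± 7.04 times the genome background (SD, n = 4), and held 68, 41, 50 and 45 summit reads in replicates 1 to 4. SUCO had a mean level of 43.1 ± 6.91 (SD, n = 4) from 41, 21, 33 and 35 reads, which placed it 133rd of the 886 regions called in every list although it was 2nd by fold. By this measure WDYHV1 was 36th and GUK1 47th. The measure is not divided by the local background, so regions of very high background also stand above the members in this order. The region on chromosome 1 from 121484221, for example, had a level of 683 over a background of 420 times the genome level. By fold it ranked 883rd.

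The remaining levels were 63.3 ± 13.4 for GUK1, 54.6 ± 4.25 for ZNRF3, 51.7 ± 11.1 for CDV3 and 48.4 ± 9.57 for TCF25 (SD, n = 4 each). RBFOX2 had 44.4 ± 9.37 and FBRSL1 35.9 ± 17.3 (SD, n = 4 each). In 7 of the 8 members the level was highest in replicate 1, as it was in 49.8% of the regions called in every list. The median over the 8 members was 50.1, against 27.9 over all regions called in every list. Again no step between neighbours exceeded the larger of their SDs. The lowest list of WDYHV1, at 62.2, was above the highest list of SUCO, at 48.4. It was also above the highest lists of FBRSL1 (51.7), RBFOX2 (54.0), ZNRF3 (57.4) and TCF25 (59.7). The ranges of GUK1 and CDV3, which reached 79.3 and 64.3, overlapped that of WDYHV1.

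The local background, by which the fold divides, differed between members. The lowest background of a list was taken as its genome level, so no value can lie below 1.00. The background at the SUCO summit was at this floor, 1.00, in all 4 lists, and that of TCF25 was 1.07. RBFOX2 had 1.20 to 1.28, FBRSL1 1.34 to 1.37, CDV3 1.15 to 1.71 and GUK1 1.60 to 2.51. WDYHV1 had 2.35 to 2.56 times the genome level, and ZNRF3 1.60 to 3.41. For 6 of the 8 members the median background was under 2 times the genome level, which was so for 53.3% of the 886 regions called in every list, whose median was 1.92. The region that ranked 1st by median percentile of fold among those called in every list, on chromosome 8 from 12051483 to 12052556, had 3.77. Copy number of these loci in LNCaP was not tested, and these local background levels are not a measure of it. That the members are single-copy comes with the choice.

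Between lists, the depth-scaled levels of 7 members had overlapping counting intervals in every pair. Of the 48 pairs of lists over the 8 members, 2 had 95% Poisson intervals that did not overlap, both at FBRSL1. There the level was 51.7 in replicate 1 (37.7 to 69.2), 47.4 in replicate 2 (31.96 to 67.6), 30.6 in replicate 3 (19.4 to 45.9) and 13.8 in replicate 4 (6.63 to 25.4). Its summit held 45, 30, 23 and 10 reads in the same order. Replicate 4 was separate from replicates 1 and 2, and its interval overlapped that of replicate 3. These intervals cover counting error only.

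**Figure D3:**
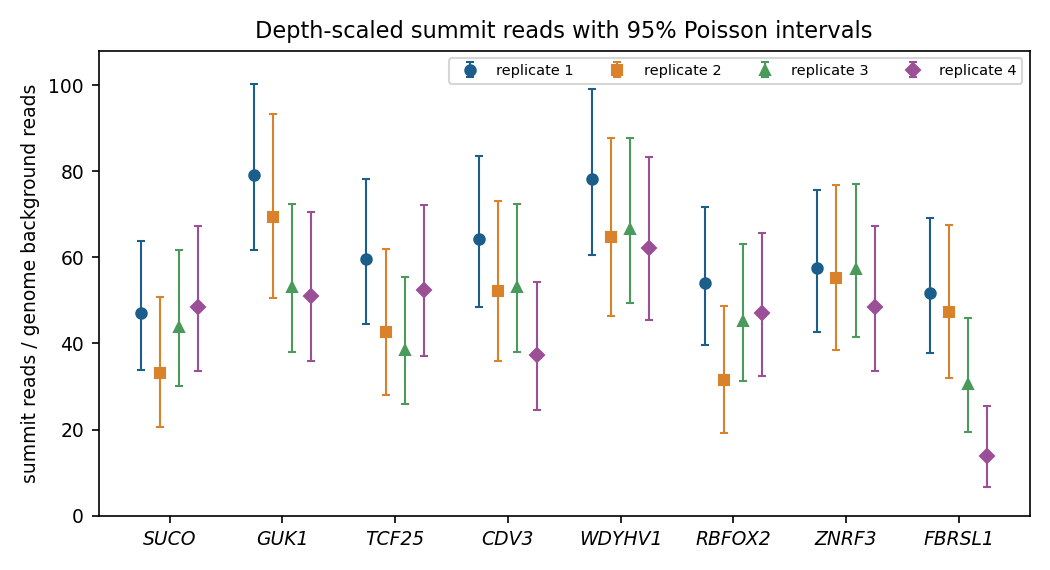
Summit reads divided by the genome background of the list (vertical axis) for each gene and replicate, with 95% Poisson intervals as bars. The 4 intervals of a gene overlap throughout except at FBRSL1, where replicate 4 at 13.8 lies below replicates 1 and 2.

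At ZNRF3 the folds fell into 2 pairs while the intervals of the depth-scaled reads overlapped in all 4 lists. The depth-scaled level was 57.4, 55.3, 57.2 and 48.4 in replicates 1 to 4, a span of 1.19 times, the narrowest of the 8 members. The summits fell into 2 places. In replicates 1 and 3 they were at 29279451 and 29279441 of chromosome 22, over a background of 3.36 and 3.41 times the genome level, and the folds were 13.0 and 12.3. In replicates 2 and 4 they were at 29279336 and 29279354, over a background of 1.67 and 1.60, and the folds were 17.5 and 16.7. The lower folds were at the summits of higher background, which follows by construction at similar levels, since the fold divides by this background.

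Summit positions, which the choice of members did not use, were read in hg19. TCF25 was the tightest, with summits on chromosome 16 at 89940624, 89940603, 89940602 and 89940599 in replicates 1 to 4, a range of 25 bp. SUCO followed with 172502152, 172502120, 172502132 and 172502138 on chromosome 1, a range of 32 bp. The FBRSL1 summits on chromosome 12, at 133066609, 133066571, 133066572 and 133066586, had a range of 38 bp even though the last rests on 10 reads. GUK1 ranged over 40 bp, around 228327859 on chromosome 1, the summit of replicate 1.

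The other members were wider. CDV3 ranged over 71 bp from 133292277 on chromosome 3, WDYHV1 over 83 bp from 124428698 on chromosome 8 and RBFOX2 over 95 bp from 36425100 on chromosome 22. ZNRF3, with its summits in 2 places, ranged over 115 bp. The median range of the 8 was 55.5 bp, against 92 bp over the 886 regions called in every list and 65 bp over the 81 other regions in the top 10% of those by fold. Without replicate 2 the medians were 34 bp for the members and 73 bp for the regions of the other 3 lists. Without replicate 1, 3 or 4 they were 51, 50 and 54.5 bp, against 76, 75 and 72 bp. The 3 regions nearest to the members in fold over the lists ranged over 47, 41 and 38 bp. The regions among the 10 strongest that were not members ranged over 34 to 482 bp. Summits lay within 100 bp of each other for 7 of 8 members and for 55.1% of all regions called in every list. Members were chosen with results known, so no p is given.

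The peaks of members were wide for their lists, as were those of other regions of high fold. Averaged over the lists, the median width was 560.6 bp for the members and 531.75 bp for the 81 other regions in the top 10% by fold. The 4 regions among the 10 strongest that were not members had mean widths of 650 to 962 bp. Median widths were 607.5, 495, 549.5 and 557 bp in replicates 1 to 4, against 346, 323, 325 and 339 bp for all peaks and 489, 432, 465.5 and 451 bp for the top 10% of each list by fold. TCF25 had the widest peak, 1013 bp in replicate 1, where it reached 768 bp to the lower side of the summit. The other lists called 613, 583 and 605 bp there, with 349, 334 and 314 bp on that side. The FBRSL1 peak of replicate 4 was the narrowest of the 32, at 266 bp.

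At TCF25 and RBFOX2 the side of lower genome position was the longer one in all 4 lists. At RBFOX2 it measured 489, 229, 389 and 375 bp, against 270, 196, 180 and 186 bp on the higher side. A single longer side in every list was found for 2 of 8 members and for 22.7% of the regions called in every list, so the members' share was near that of all regions. At WDYHV1 the higher side was the longer one in replicates 1, 3 and 4, reaching 468 bp in replicate 4, but not in replicate 2.

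**Figure D4:**
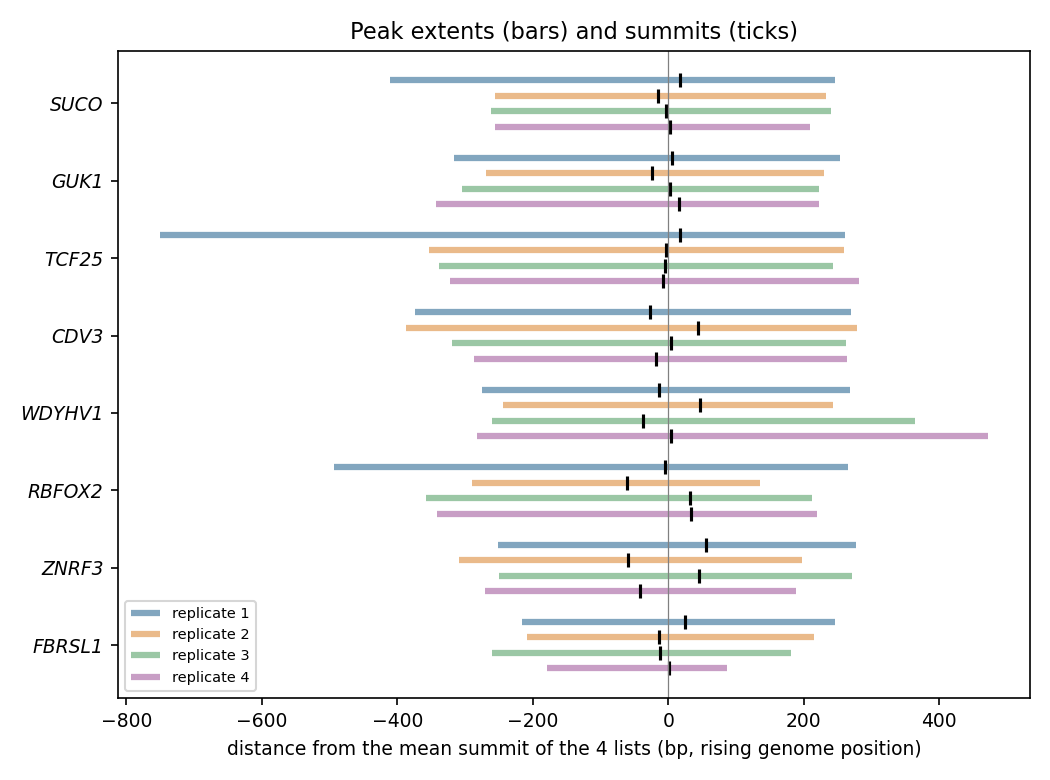
Extent of each peak (bars, coloured by replicate) and its summit (black ticks) as distance in bp from the mean summit of the 4 lists, in the direction of rising genome position. TCF25 summits lie within 25 bp, ZNRF3 summits form 2 pairs within a range of 115 bp, and the TCF25 bar of replicate 1 extends farthest.

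Only GUK1 had another peak within 50 kb in any list. The 7 other members had none in any of the 4 lists, while 53.3% of the 886 regions called in every list had at least 1 other region that close. Counting only regions of at least 2 lists, the figures were 1 of 8 members and 36.8%. Among the 81 other regions in the top 10% by fold, 46.9% had a neighbour. The 4 regions among the 10 strongest that were not members had 0, 2, 0 and 0 neighbours, in order of rank. The 3 regions nearest to the members in fold over the lists had 0, 2 and 4. A lack of neighbours was thus not particular to the members.

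GUK1 had 5 neighbouring regions within 50 kb, holding 3, 2, 4 and 2 peaks in replicates 1 to 4. The nearest, from 228353143 to 228353501 on chromosome 1, was called in every list with folds of 7.61, 7.12, 9.12 and 8.83, and its summits lay 25.4 to 25.5 kb above the mean GUK1 summit. A region from 228361695 to 228362349 was called in replicates 2, 3 and 4, with folds of 6.26, 8.95 and 8.79. On the lower side, the region from 228296925 to 228297269 was called in replicates 1 and 3, with folds of 8.75 and 6.15. These neighbours were all below the GUK1 peak of the same list. The remaining 2 regions were called in a single list each.

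The nearest region of any list lay 70.9 kb away for FBRSL1, 88.4 kb for SUCO and 94.6 kb for RBFOX2. It was 140.4 kb away for ZNRF3, 141.1 kb for WDYHV1, 151.9 kb for TCF25 and 232.0 kb for CDV3. For FBRSL1, SUCO, RBFOX2, TCF25 and CDV3 that region was called in a single list. The median gap over the 8 members was 117.5 kb. It was 45.0 kb over all regions called in every list and 60.3 kb over the 81 others of high fold. Counting only regions of at least 2 lists, the median gaps were 157.0, 97.6 and 128.4 kb in the same order. Within 100 kb, 4 of the 8 members had a neighbour, as did 70.3% of the regions called in every list. WDYHV1 was also apart from other regions called in every list. The nearest such region lay 2012.68 kb away on its higher side and 20760 kb away on its lower side.

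By the order of protein-coding genes in RefSeq (GRCh38.p14), the gene on the lower side of WDYHV1 is ATAD2, a bromodomain ATPase, and the one on that side of ZNRF3 is XBP1, a transcription factor of the unfolded protein response. CDV3 lies next to TOPBP1, a replication checkpoint protein, SUCO next to FASLG, the Fas ligand, and TCF25 next to SPIRE2, an actin nucleator. On the other side lie FBXO32 for WDYHV1, C22orf31 for ZNRF3, BFSP2 for CDV3, C1orf105 for SUCO and LOC124903759 for TCF25. The genes next to GUK1, RBFOX2 and FBRSL1 are not given here. The genes at the neighbouring hg19 regions were not analysed here.

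**Figure D5:**
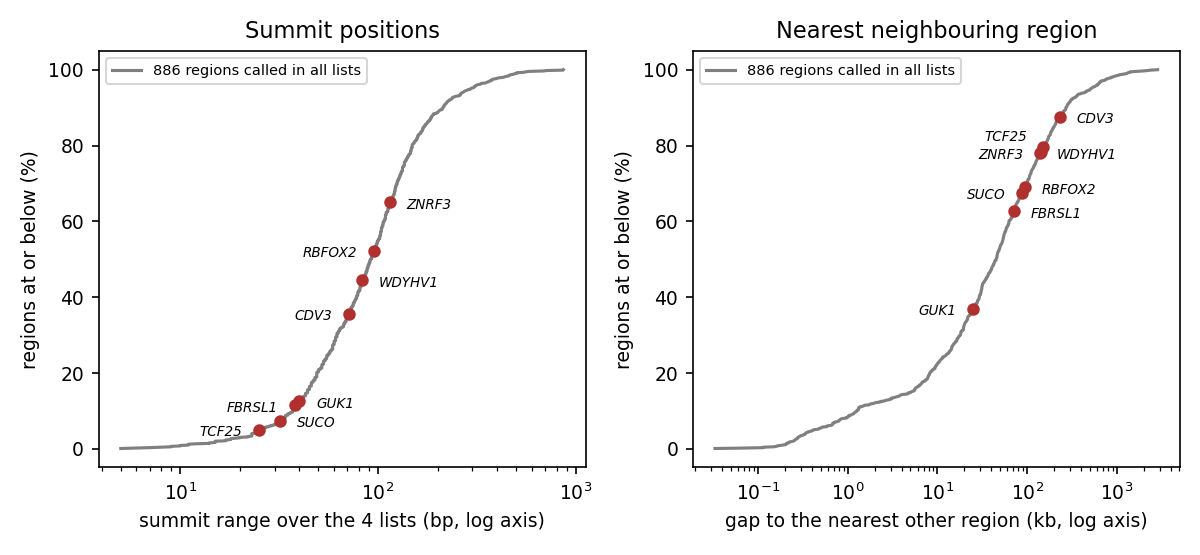
Cumulative share (vertical axis, %) of the 886 regions called in every list by the range of their summits over the 4 lists (left, bp) and by the gap to the nearest other region (right, kb), both on log axes. Members are red points: TCF25 at 25 bp is the tightest and ZNRF3 at 115 bp the widest, and GUK1, at 25.03 kb, is the member nearest to another region.

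The choice of members had limits, given here with no test. Among regions called in every list and ranked by their median percentile of fold, SUCO was 2nd, TCF25 3rd, GUK1 5th, CDV3 8th, WDYHV1 9th and RBFOX2 10th. ZNRF3 and FBRSL1 ranked 50th and 54th. The 4 other regions among the 10 strongest were not among the given spans. They lie on chromosome 8 from 12051483, on chromosome 21 from 37528522 and on chromosome 3 from 125634546 and from 75484241. Also outside the given spans were regions on chromosome 19 from 10946194 and on chromosome 20 from 33463834, which had a fold among the 5 highest of a list but ranked 25th and 39th. Just outside the 10 strongest were regions on chromosome 11 from 64008314 to 64009172, with folds of 19.2, 16.3, 17.8 and 16.5, on chromosome 18 from 11980885 to 11981836, with 18.2, 12.8, 18.8 and 18.1, and on chromosome 22 from 41985740 to 41986329, with 21.3, 16.7, 16.6 and 16.6. RBFOX2, just inside, had 22.7, 11.95, 17.8 and 18.2. Ranked by −log10 q in place of fold, 1 of the 8 members was among the 10 strongest, not 6.

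The region whose folds were nearest to the mean of the members, over the 4 lists, was on chromosome 3 from 43663427 to 43663925. Its folds were 21.7, 14.9, 16.6 and 15.1, a root mean square distance of 0.05 on the log2 scale. The next were the regions on chromosome 22 from 41985740 and on chromosome 11 from 64008314, at 0.08 and 0.14. Among the members themselves WDYHV1 was nearest to that mean, at 0.09, and FBRSL1 farthest, at 0.77.

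Of the whole series, the lists held 6740, 1746, 3805 and 2281 peaks in replicates 1 to 4. The median summit held 14 to 16 reads, and the genome background was 0.871, 0.633, 0.752 and 0.724 reads. The members' summits held 10 to 69 reads, and the lowest, that of FBRSL1 in replicate 4, was below the median of its list. All lists share 1 input, so their backgrounds are not independent of each other.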

How the data were processed

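BG4 ChIP-seq was measured in 4 LNCaP pull-downs with 1 input, grouped by their titles. Per the submitters' processing notes, the tools were bcl2fastq 1.8.4, Bowtie2 2.2.5 and SAMtools 1.11, next to MACS2 2.1.1, on hg19. How they were set is not given in the sources used here. For each replicate the authors deposited 1 narrowPeak list, so peaks were not called on pooled reads. The deposited columns hold positions, a whole-number score that was not used, the fold ratio, the −log10 p and the −log10 q-value of the summit.

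Summit reads were recovered as the whole number that gives back the deposited −log10 p within 0.001, for 100% of peaks. On simulated data, 100% of 870 summits were recovered. The lowest background of a list was taken as its genome level. Peaks were merged at 1 bp of overlap. Promoter sequences and gene names come from RefSeq (GRCh38.p14), in whose gene table all 8 symbols or synonyms matched, and no coordinates were converted.

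Members and lists were chosen with earlier results of these data known. Named are the 8 members, their neighbours in at least 2 lists, the 3 regions just below the 10 strongest and the 3 of nearest fold profile. No p-value was computed. The 4 replicate values of each member were screened for an outlying one with Dixon's 95% critical value for 4 samples. Alternatives were stricter −log10 q limits, equal list lengths, each replicate left out, other windows, overlaps, ranks and motif definitions. The comparison with the top 10% of regions and the fold without pseudocount were added after seeing the data. Values were computed in Python 3.11.15 with pandas 2.3.3, numpy 2.4.6 and scipy 1.17.1, and plots were drawn with matplotlib 3.10.9.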

Additional observations from a re-analysis of the deposited data

Results flagged for a closer look

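In 7 of 40 sets of 4 replicate values of the members, the gap between 1 replicate and the nearest of the other 3, divided by the range of the set, was above Dixon's 95% critical value. Chance marks about 1 in 20 independent sets, but these sets share lists and 1 input, so the count is not read against that share. The GUK1 fold of replicate 1 was 28.4, against 18.0 in the nearest. The TCF25 peak of replicate 1 was 1013 bp wide, against 613 bp, and its summit lay 25 bp above the lowest, against 4 bp. Backgrounds over the genome level stood apart at GUK1 in replicate 2 (2.51, nearest 1.71), WDYHV1 in replicate 2 (2.35, nearest 2.56), RBFOX2 in replicate 2 (1.20, nearest 1.28) and FBRSL1 in replicate 1 (1.37, nearest 1.34). At WDYHV1, RBFOX2 and FBRSL1 the backgrounds of the other 3 replicates were practically equal, so that even a small difference, as at FBRSL1, spans the whole range.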

How the results depend on the processing

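All 8 members were called in every list, as were 11.8% of all regions. The members numbered 7 when lists were cut to equal length (17.9% of all regions) or to −log10 q of at least 5 (11.5%), where FBRSL1 dropped out of replicate 4. Members among the 10 strongest numbered 6, and 1 when ranked by −log10 q. With each replicate left out they numbered 4 to 6. The median over members of the mean fold was 18.5. It was 34.8 without the pseudocount and 16.6 to 19.9 with each replicate left out. Members with a neighbour within 50 kb numbered 1, against 53.3% of the regions called in every list, a share that was 33.0% with lists of equal length. They numbered 0 within 25 kb (36.9%) and 4 within 100 kb (70.3%). The median summit range was 55.5 bp, against 92 bp over all regions called in every list, and 34 to 54.5 bp with each replicate left out, the lowest without replicate 2. It was 71 bp against 83 bp at −log10 q of at least 5, and 71 bp against 82 bp with lists of equal length. Motif windows numbered 7, and 1 with runs of at least 4 guanines, where 4.23% of all windows had it. For these changes the cause was not tested beyond what each setting does by construction. No paired analysis was possible because all pull-downs belong to 1 group. The FBRSL1 peak of replicate 4 rests on 10 reads, the fewest of the 32 member peaks.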
